A study of Mus musculus with 4 samples.

Results

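S100 proteins are small calcium-binding proteins with paired EF-hand motifs, and 6 of their genes, S100a8, S100a9, S100a6, S100a11, S100a4 and S100a10, were followed here in neutrophils from mouse tumors and blood. They were taken by gene symbol, as 6 of the 18894 genes with a row in the count table of either tissue. They were read in 841 tumor cells and 1375 blood cells that carried at least 200 detected genes, at most 15% mitochondrial UMIs and 1 leading hashtag. A UMI (unique molecular identifier) marks 1 captured RNA molecule, and levels are given as a gene's share of all UMIs of a cell or of a mouse. Log2 changes tested with edgeR rest on counts that it also scales between samples, so they can differ from ratios of these shares. Drop-seq captures molecules at their 3′ ends, so these shares are not divided by gene length.

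The tumor neutrophils came from tumors that had grown for 2 to 3 weeks, to about 1 cm across, after FVB mice were injected with cells of the line Py7160, and the blood neutrophils came from those mice too. FVB is an inbred laboratory strain, and no mouse was treated or carried an engineered allele named in the labels. Tumors were digested with enzymes and blood was cleared of red cells by lysis, so the release of the cells differed between the tissues as well. Cells were enriched for the neutrophil surface protein Ly6G, tagged with 1 of 3 hashtag antibodies per tissue, pooled and sorted as CD11b+ Ly6G+ cells. There were 3 mice per tissue, and each tissue made 1 RNA library with 1 hashtag library, so the tissue cannot be told apart from its library or from the handling of its cells. The labels do not say that a hashtag number marks the same mouse in both tissues.

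The assigned cells held 572844 UMIs in tumor and 1147068 in blood, with 106, 564 and 171 cells in tumor mice 1, 2 and 3 and 511, 456 and 408 cells in blood mice 1, 2 and 3. The median depth per cell was 570 to 586 UMIs in the tumor mice and 647.5 to 671 UMIs in the blood mice. The neutrophil markers Csf3r, Ly6g, Itgam, Cxcr2, Cxcl2 and Il1b together gave at least 2 UMIs in 809 tumor cells (96.2%) and in 1349 blood cells (98.1%). Macrophage or MHC class II markers gave at least 2 UMIs in 66 tumor cells and 50 blood cells. Erythroid markers were at 0 in tumor and made 1.396% to 2.22% of UMIs in the blood mice. Of the 18894 genes 12243 had a row in both tissues' count tables. A gene without a row in a tissue was counted as 0 there, so a 0 can also stand for a missing row. Hashtag 2 lay above the other tags in the tumor library even outside cells, with a median of 157 counts in barcodes of 20 to 60 UMIs, against 18 and 26 for hashtags 1 and 3. A second caller of hashtags, HTODemux, did not give 321 of the 564 tumor mouse 2 cells to mouse 2. No cell barcode that passed the filters was shared by the tissues' libraries.

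S100a8 and S100a9 form the heterodimer calprotectin, which is stored in the neutrophil cytosol, binds calcium, zinc and manganese, and acts outside cells through receptors such as TLR4 and RAGE. Neutrophils fill their cytosol with it as they mature in the bone marrow, and in tumors its release is linked to the recruitment of further myeloid cells. S100a6 (calcyclin) and S100a11 (calgizzarin) are widely expressed and bind annexins at membranes, S100a10 (p11) pairs with annexin A2 and no longer binds calcium, and S100a4 binds non-muscle myosin and is known from fibroblasts, macrophages and metastatic cells.

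All 6 genes lie on mouse chromosome 3 and are annotated as protein-coding in GENCODE M21 (build GRCm38). S100a8 occupies chr3:90668978-90670035 on the plus strand and S100a9 chr3:90692632-90695721 on the minus strand, with 22596 bases and no other annotated gene between them. S100a4 (chr3:90603771-90606045) and S100a6 (chr3:90612882-90624181) lie on the plus strand, 6836 bases apart. S100a11 (chr3:93520488-93526287) and S100a10 (chr3:93555080-93564643) lie on the plus strand 2824766 bases past the end of S100a9 and 28792 bases from each other. S100a4 overlaps the annotated gene Gm42674 on its own strand, so reads of these loci may be split between them. The pseudogene S100a11-ps had 3 UMIs, all in blood, beside 5288 blood UMIs of S100a11.

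The start regions of the 4 genes with enough UMIs to compare are shown so that the letters searched for can be read in place. Each window runs from 250 bases before the RefSeq start site to 20 bases into the transcript (GRCm38.p6), and capitals mark TATAAA and the C/EBP-like letters TTNNGNAA and TGNNGNAA on either strand. C/EBP factors are transcription factors of myeloid cells.
S100a8, chr3:90668821-90669090, plus strand: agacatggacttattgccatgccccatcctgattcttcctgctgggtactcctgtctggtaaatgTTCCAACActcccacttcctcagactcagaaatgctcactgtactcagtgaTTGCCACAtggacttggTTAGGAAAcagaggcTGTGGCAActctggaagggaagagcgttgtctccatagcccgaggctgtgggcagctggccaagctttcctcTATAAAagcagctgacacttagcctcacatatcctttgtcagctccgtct
S100a9, chr3:90695702-90695971, minus strand: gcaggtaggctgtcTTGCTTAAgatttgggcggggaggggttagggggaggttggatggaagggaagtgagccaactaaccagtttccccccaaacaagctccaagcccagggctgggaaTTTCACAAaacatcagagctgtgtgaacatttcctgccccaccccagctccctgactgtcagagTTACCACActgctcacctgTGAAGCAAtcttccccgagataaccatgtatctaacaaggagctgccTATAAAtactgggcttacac
S100a6, chr3:90612644-90612913, plus strand: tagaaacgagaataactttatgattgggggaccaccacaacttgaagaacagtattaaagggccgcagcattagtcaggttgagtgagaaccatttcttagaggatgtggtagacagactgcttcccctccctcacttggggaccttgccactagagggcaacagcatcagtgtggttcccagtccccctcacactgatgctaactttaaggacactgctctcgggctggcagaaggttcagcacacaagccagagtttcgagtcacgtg
S100a11, chr3:93520246-93520515, plus strand: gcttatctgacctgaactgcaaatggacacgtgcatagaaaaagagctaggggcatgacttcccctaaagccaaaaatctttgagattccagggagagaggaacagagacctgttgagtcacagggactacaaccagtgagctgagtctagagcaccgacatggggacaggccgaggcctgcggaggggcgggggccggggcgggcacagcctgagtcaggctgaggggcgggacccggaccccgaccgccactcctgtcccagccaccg

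Promoter windows of 300 bases (250 before and 50 after the start site) were on hand for 5 of the 6 genes, all but S100a10. S100a8 held TATAAA at −30, TTNNGNAA at −117 and TGNNGNAA at −185, −134 and −102 from the start site. S100a9 held TATAAA at the annotated start site itself, TTNNGNAA at −236 and −130 and TGNNGNAA at −66 and −47. S100a4, whose window is not printed, held TATAAA at −31 and TGNNGNAA at −105 and −67. S100a6 and S100a11 held none of these 3. TATAAA occurred in 13.6% of all 32851 promoter windows of that length, TTNNGNAA in 40.7% and TGNNGNAA in 46.5%, so matches of the C/EBP-like letters are common. Of the 4 other motifs searched on both strands, GAGGAA (PU.1; 28.3% of windows) matched S100a8 at 2 places and S100a4 and S100a11 at 1 each, TGANTCA (AP-1; 7.81%) matched S100a11 at 2 places and ACGTG (HIF core; 19.6%) matched S100a6 and S100a11 at 1 place each, read on both strands. TTCNNNGAA (STAT; 8.30%) matched none of them. A match describes letters and not binding.

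S100a8 made 3.49%, 3.77% and 3.01% of all UMIs in tumor mice 1, 2 and 3, against 9.17%, 9.53% and 8.13% in blood mice 1, 2 and 3. Every tumor mouse lay below every blood mouse, and the mean was 3.42% ± 0.38 in tumor and 8.94% ± 0.73 in blood (SD, n = 3 mice each), so that the tumor level was 38.3% of the blood level. Tumor mice lay below blood mice without overlap for 32.4% of the 3674 genes tested. S100a8 fell by 1.37 on the log2 scale in tumor relative to blood (SE 0.10, edgeR quasi-likelihood test, adjusted p = 6.1e-09). S100a9 made 3.43%, 3.66% and 3.15% of UMIs in tumor mice 1, 2 and 3, against 8.50%, 8.96% and 7.49% in blood mice 1, 2 and 3. Its mice did not overlap between tissues either, and it fell by 1.27 on the log2 scale (SE 0.10, edgeR adjusted p = 8.52e-09). Ranked by UMIs, S100a8 and S100a9 stood 2nd and 3rd of 12694 genes in tumor and 1st and 2nd of 13517 genes in blood. Calprotectin as a whole, the 2 genes summed, took 6.84% ± 0.63 of the UMIs in tumor and 17.3% ± 1.5 in blood (SD, n = 3 each).

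S100a6 made 0.143%, 0.0947% and 0.0907% of UMIs in tumor mice 1, 2 and 3, against 0.383%, 0.327% and 0.350% in blood mice 1, 2 and 3. Its fall of 1.71 on the log2 scale was the steepest of the 4 in this fit (SE 0.15, edgeR adjusted p = 2.69e-08), and the tissues did not overlap. S100a11 made 0.160%, 0.170% and 0.145% in tumor mice 1, 2 and 3, against 0.452%, 0.446% and 0.490% in blood mice 1, 2 and 3. It fell by 1.51 on the log2 scale (SE 0.12, edgeR adjusted p = 8.3e-09), again with no overlap. The tumor level was 31.0% of the blood level for S100a6 and 34.2% for S100a11. S100a11 ranked 67th by UMIs in tumor and 18th in blood, and S100a6 125th in tumor and 23rd in blood.

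S100a4 and S100a10 were near the limit of detection in both tissues. S100a4 had 0, 13 and 3 UMIs in tumor mice 1, 2 and 3, against 8, 2 and 5 UMIs in blood mice 1, 2 and 3. S100a10 had 0, 13 and 2 UMIs in tumor mice 1, 2 and 3, against 7, 12 and 3 UMIs in blood mice 1, 2 and 3. The count of 0 in tumor mouse 1 allows a share of up to 0.00425% of UMIs (3 counts of 70612, counting error only), which is above the tumor means of 0.00198% for S100a4 and 0.00170% for S100a10. Neither gene passed the low-count filter. Without that filter the log2 change was 0.83 for S100a4 (95% interval -0.39 to 2.05, edgeR adjusted p = 0.47) and 0.19 for S100a10 (-0.94 to 1.33, edgeR adjusted p = 0.823), so no difference was detectable at this depth. In tumor the 66 of 841 cells with macrophage or MHC class II markers held 10 of the 16 S100a4 UMIs and 10 of the 15 S100a10 UMIs. In blood the 50 of 1375 cells with these markers held 8 of the 15 S100a4 UMIs, but only 2 of the 22 S100a10 UMIs.

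**Figure D1:**
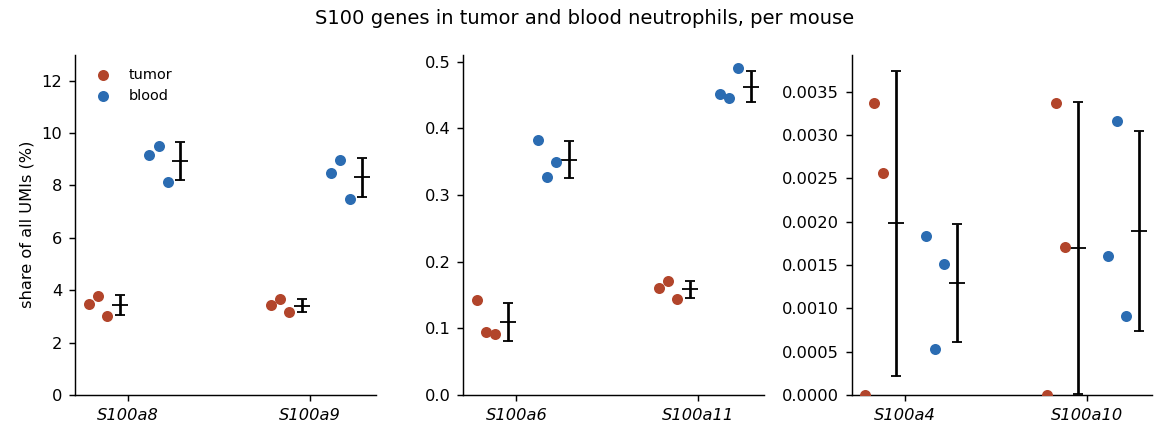
Share of all UMIs (%) taken by each S100 gene, with 1 point per mouse, tumor in red and blood in blue, and black bars for the mean ± SD of 3 mice; the 3 panels have different vertical scales. S100a8 lies between 3.01% and 3.77% in tumor and between 8.13% and 9.53% in blood, and S100a4 and S100a10 overlap between the tissues.

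Of the genes tested, 29.8% were called lower and 30.2% higher in tumor at an adjusted p under 0.05. Of the 6 S100 genes 4 could be tested and these were called lower; the median log2 change was -1.44 over these 4 and -0.04 over all genes tested. In order of mean share the genes ran S100a8, S100a9, S100a11 and S100a6 in both tissues, with S100a4 and S100a10 last in no fixed order. S100a8 and S100a9 overlapped between mice within each tissue, though S100a8 lay above S100a9 in every blood mouse and not in every tumor mouse. S100a11 lay above S100a6 in every mouse, and S100a4 and S100a10 overlapped. The summed counts alone do not tell fewer cells with the RNA from less RNA per cell.

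At equal depth, fewer tumor cells than blood cells had a UMI of these genes. When each cell was reduced to 441 UMIs, which left out 209 tumor cells and 254 blood cells of lower depth, 23.1% ± 4.6 of tumor cells and 53.2% ± 4.4 of blood cells had an S100a6 UMI (SD, n = 3 mice each). For S100a11 the shares were 37.7% ± 5.9 in tumor and 80.4% ± 2.3 in blood. For S100a8 they were 84.7% ± 3.5 in tumor and 96.8% ± 0.6 in blood, and for S100a9 81.0% ± 0.8 in tumor and 98.1% ± 0.5 in blood. None of these 4 genes overlapped between tissues, and each exact permutation test gave the smallest two-sided p that 3 against 3 mice allow, 0.1. The share of all genes whose detection did not overlap between tissues was not computed. Without the reduction the shares were 85.0% and 96.4% for S100a8, 78.7% and 98.6% for S100a9, 26.5% and 56.4% for S100a6 and 40.05% and 86.5% for S100a11, in tumor and in blood.

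Free RNA has to be set beside these shares. In barcodes of 20 to 60 UMIs, taken here to hold free RNA, S100a8 made 0.725% of UMIs in the tumor library and 1.66% in the blood library, and S100a9 0.928% in tumor and 2.34% in blood. Were all 441 UMIs free RNA, that level would give an S100a8 UMI to 96.0% of tumor and 99.9% of blood barcodes. This is an upper case, since the part of a cell's UMIs that was free RNA was not measured. The shares of cells with an S100a8 or S100a9 UMI are therefore not read as evidence of expression in a given cell. S100a6 made 0.0354% of the free RNA in tumor and 0.0705% in blood. In the same upper case that was enough for a UMI in 14.5% and 26.7% of barcodes. S100a11 made 0.0287% of the free RNA in tumor and 0.0802% in blood, enough for 11.9% and 29.8%. The measured shares of cells with an S100a6 or S100a11 UMI exceeded these in both tissues. Those of S100a8 and S100a9 lay below the shares that free RNA alone would give, which for S100a9 were 98.4% in tumor and 99.997% in blood. The levels in cells were above those in free RNA by 4.94 times in tumor and 5.43 times in blood for S100a8, 3.80 and 3.57 times for S100a9, 2.82 and 5.04 times for S100a6, and 5.71 and 5.75 times for S100a11. How far free RNA contributes to the difference between tissues was not tested.

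Single cells differed widely in their S100 load. The median tumor cell gave 1.19% of its UMIs to S100a8, with quartiles of 0.237% and 3.92% and a highest value of 18.6%, and the median blood cell gave 6.97%, with quartiles of 2.69% and 11.4% and a highest value of 27.4%. S100a8 was at 0 in 141 tumor cells (16.8%) and in 49 blood cells (3.56%). For S100a9 the median was 1.29% in tumor cells and 6.87% in blood cells, with 170 tumor cells (20.2%) and 19 blood cells (1.38%) at 0. The upper tail of the tumor cells reached into the blood range: the 95th percentile of S100a8 was 11.8% in tumor, against 16.5% in blood. In tumor 40.3% of cells held less S100a8 than the free RNA of their library, and in blood 18.3% did. S100a6 had a median of 0 in tumor cells and 0.131% in blood cells, and S100a11 a median of 0 in tumor cells and 0.396% in blood cells.

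**Figure D2:**
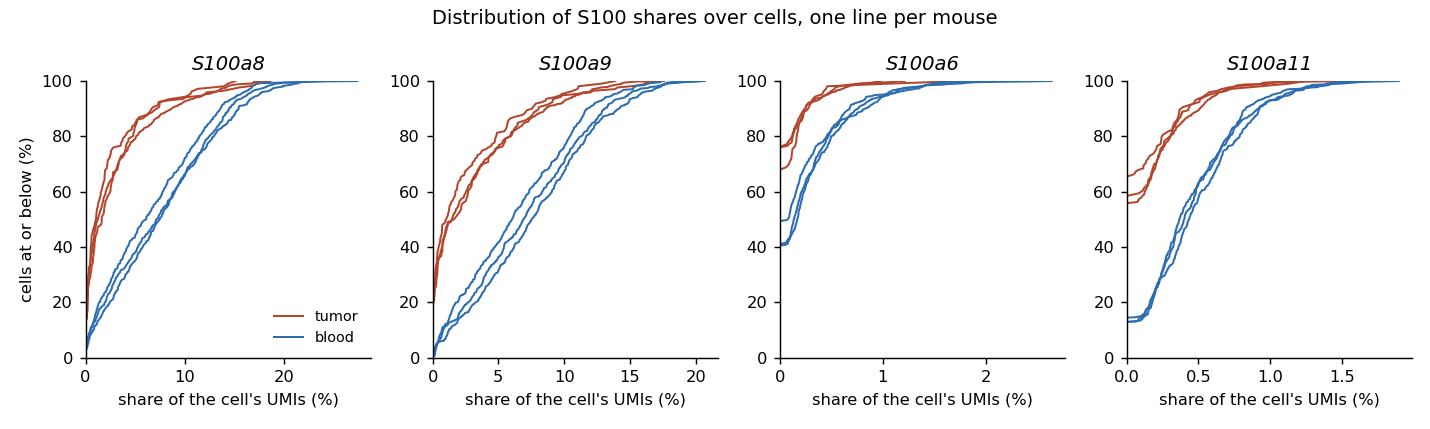
Cumulative distribution over cells (vertical axis, % of cells at or below) of each gene's share of a cell's UMIs (horizontal axis, %), with 1 line per mouse, tumor in red and blood in blue. The tumor lines of all 4 genes rise to the left of the blood lines, and the 3 lines of a tissue run close together.

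The spread of S100 shares over cells was wider in tumor relative to its mean. After the counting variance was removed, the coefficient of variation of the S100a8 share was 118%, 130% and 149% in tumor mice 1, 2 and 3, against 70.05%, 68.5% and 74.6% in blood mice 1, 2 and 3. The means were 132% ± 16 in tumor and 71.1% ± 3.2 in blood (SD, n = 3 each). For S100a9 the spread averaged 124% ± 13 in tumor and 62.4% ± 3.6 in blood. S100a6 gave 194% ± 18 in tumor and 123% ± 10 in blood, and S100a11 124% ± 14 in tumor and 45.9% ± 2.0 in blood. The tissues did not overlap for any of these 4 genes (exact two-sided permutation p = 0.1 each, the smallest possible). How many of all genes would show such a gap in spread was not computed. By this measure S100a11 was in blood the most evenly spread of the 4 genes, and S100a6 was the least even of them in both tissues. At a fixed depth of 441 UMIs the plain coefficient of variation, which keeps the counting variance, gave the same order of tissues, 128% ± 24 in tumor and 65.7% ± 0.9 in blood for S100a8. The order of genes changed: in blood S100a9 was then the most even at 58.6% ± 0.8, and S100a11 stood above S100a8 and S100a9 at 82.2% ± 5.1.

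S100a8 and S100a9 kept nearly equal amounts within a mouse. The ratio of S100a8 to S100a9 UMIs was 1.02, 1.03 and 0.956 in tumor mice 1, 2 and 3, against 1.08, 1.06 and 1.09 in blood mice 1, 2 and 3. The tumor mice lay below the blood mice by 0.10 on the log2 scale, with no overlap and an exact two-sided permutation p of 0.1, the smallest possible. In cells with at least 300 genes that difference was 0.03 and the mice overlapped (exact permutation p = 1). The ratio of calprotectin to the other 4 genes was 25.3 ± 2.3 in tumor and 21.1 ± 2.6 in blood (SD, n = 3 each; exact permutation p of the log2 ratio 0.2). Over cells of the same mouse, the shares of S100a8 and S100a9 ran together with a mean Spearman correlation of 0.84 in tumor (0.80 to 0.87 in single mice) and 0.86 in blood (0.85 to 0.87). Both shares come from the same cell and were higher in deeper cells, so the correlation is a description only.

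**Figure D3:**
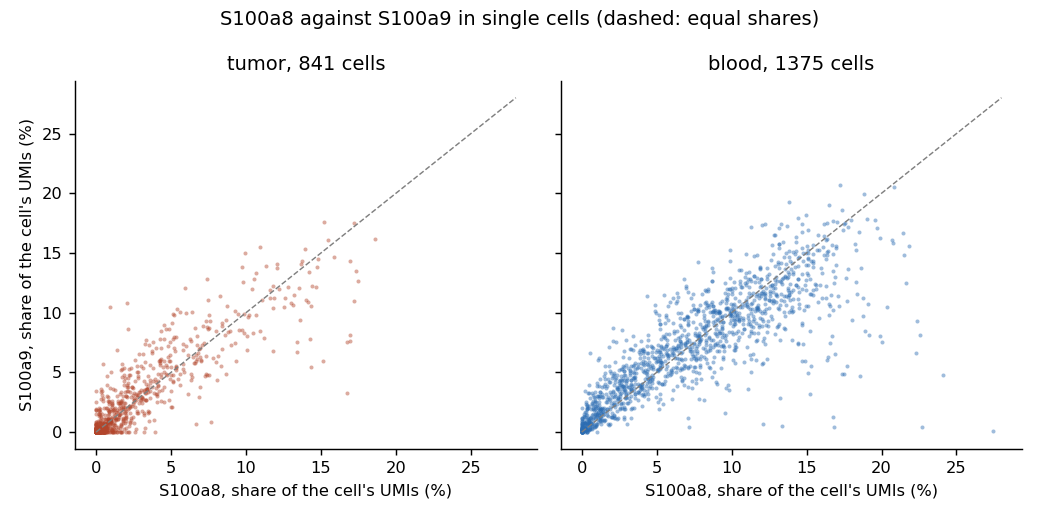
Share of a cell's UMIs taken by S100a8 (horizontal axis, %) and S100a9 (vertical axis, %), 1 point per cell, with 841 tumor cells on the left and 1375 blood cells on the right; the dashed line marks equal shares. Tumor cells crowd towards 0, with a median S100a8 share of 1.19%, and blood cells spread along the line, with a median of 6.97%.

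Among the genes with a UMI in at least 20% of cells, 329 in tumor and 387 in blood, the partner of each calprotectin gene was the gene most like it in both tissues. Next to it in tumor stood Wfdc17, a secreted WAP-domain protein, with a mean within-mouse Spearman correlation of 0.53 to S100a8 and 0.59 to S100a9. After it came S100a11 for S100a8 in tumor (0.51), and the actin-binding peptide gene Tmsb4x for S100a9 (0.58). In blood the next genes were Retnlg, which encodes a resistin-like protein of neutrophils, with 0.68 to S100a8 and 0.61 to S100a9, and Wfdc21 with 0.63 and 0.58. S100a6 was closest to S100a8 in both tissues (0.38 in tumor and 0.59 in blood), followed in tumor by S100a9 and Wfdc21 (0.34 each) and in blood by Retnlg (0.56) and S100a9 (0.51). S100a11 stood nearest to Tmsb4x (0.57), S100a9 (0.56) and the actin gene Actb (0.53) in tumor. Its nearest genes in blood were far weaker, Retnlg and Actb at 0.22 each and S100a9 at 0.20. By Pearson correlation of log shares the partners of S100a8 and S100a9 and the nearest gene of S100a11 in tumor were the same, while S100a6 stood nearest to Wfdc21 in tumor (0.36) and to Retnlg in blood (0.52), and S100a11 to Actb in blood (0.25).

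Depth moved with the shares and differed between the tissues. In tumor the S100a8 share was 1.78%, 2.75% and 4.71% in the cells of lowest, middle and highest depth, and in blood it was 4.82%, 7.25% and 11.1%. Cells of like depth were therefore set side by side. In cells of 400 to 599 UMIs, S100a8 made 2.34% ± 0.33 in tumor and 5.72% ± 0.52 in blood (SD, n = 3 mice each). In cells of 600 to 799 UMIs it made 2.42% ± 0.60 in tumor and 7.33% ± 0.32 in blood, and in cells of 800 to 1199 UMIs 3.93% ± 0.17 in tumor and 8.72% ± 0.65 in blood. All tumor mice lay below all blood mice in each of these bands, for S100a8, S100a9, S100a6 and S100a11. The share of all genes that did not overlap within a band was not computed. Within the band of 600 to 799 UMIs the log2 change was -1.51 for S100a8, -1.27 for S100a9, -1.84 for S100a6 and -1.71 for S100a11, all called lower by edgeR with adjusted p of at most 3.62e-07. In the same band 350 genes in all were called higher and 330 lower. The share that these make of the genes tested in the band is not given here. That band was chosen after the data had been seen.

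**Figure D4:**
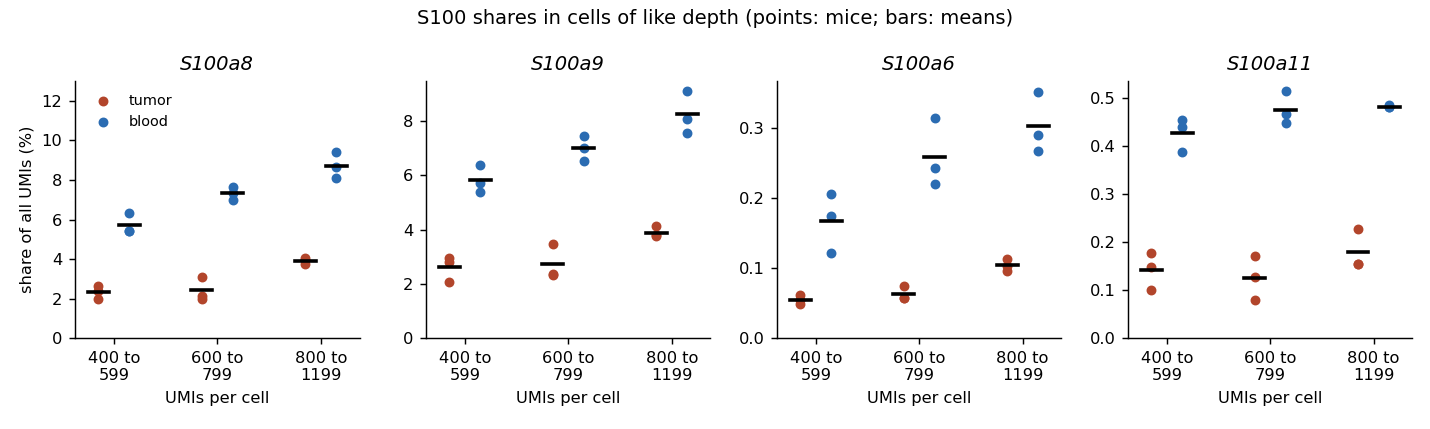
Share of all UMIs (%) of 4 S100 genes in cells grouped by their total UMIs, with 1 point per mouse, tumor in red on the left of each pair and blood in blue on the right, and bars for the mean of 3 mice. In each band the 3 tumor mice lie below the 3 blood mice, and the blood means of all 4 genes climb from band to band. That of S100a11 climbs least between the upper bands, at 0.427%, 0.476% and 0.482%.

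The assignment of cells to tumor mouse 2 touched the level but not the direction. The 321 tumor mouse 2 cells that HTODemux left out held 4.55% S100a8, against 2.90% in the 243 cells that it also gave to mouse 2. Without those 321 cells the tumor over blood change was -1.53 for S100a8, -1.41 for S100a9, -1.80 for S100a6 and -1.60 for S100a11, each called lower by edgeR. Without the cells with macrophage or MHC class II markers it was -1.27, -1.17, -1.60 and -1.39 for the same genes in that order, again called. The share of all genes called lower in these fits is not given here. With all assigned cells it was 29.8%.

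Within a tissue, the S100 genes followed other markers of neutrophil state. Cells were split by whether they held at least 2 UMIs, after reduction to 441 UMIs, of a short marker list, and both sides were compared within each mouse. In tumor, cells with UMIs of the genes Ccl3 and Ccl4, which encode chemokines of activated myeloid cells, held less of the S100 RNAs. They gave S100a8 2.92%, 2.65% and 2.06% of their UMIs in mice 1, 2 and 3, against 5.60%, 6.03% and 4.48% in cells without. The log2 differences were -1.14 for S100a8, -0.95 for S100a9, -1.72 for S100a6 and -1.10 for S100a11, all called lower by edgeR (adjusted p of 0.000729, 0.00178, 0.000747 and 0.00131), as were 7.71% of the 739 genes tested. With 1 UMI in place of 2 the S100a6 difference was -0.91 and was not called (edgeR adjusted p = 0.0545), and without mouse 3 S100a9 was not called (edgeR adjusted p = 0.0589). Cells with UMIs of the hypoxia list (Hilpda, Egln3, Vegfa, Ero1l, Ndrg1, Bnip3 and Plin2, genes that low oxygen is known to induce) also held less. S100a8 made 1.91%, 2.03% and 2.22% in these cells of mice 1, 2 and 3, against 5.12%, 5.40% and 3.91% in the rest. The log2 differences were -1.33 for S100a8, -1.31 for S100a9, -1.62 for S100a6 and -1.61 for S100a11, all called lower by edgeR, as were 14.4% of the 736 genes tested. Median depths were 638.5 to 706 UMIs in the Ccl3 and Ccl4 cells, against 605 to 701 in those without, and 616 to 645 in the hypoxia cells, against 652 to 737 in those without.

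Blood cells with UMIs of granule genes made early in maturation (Camp, Ngp, Ltf, Lcn2 and Chil3) held more calprotectin RNA. S100a8 made 13.6%, 14.97% and 12.9% in these cells of mice 1, 2 and 3, against 7.79%, 8.21% and 7.45% in the rest. The log2 differences were 1.18 for S100a8, 1.02 for S100a9 and 1.49 for S100a6, called higher by edgeR, as were 12.1% of the 2170 genes tested. These values, from scaled counts, were larger than the log2 ratios of the plain shares in each mouse. S100a11 was called too, at 0.41 (edgeR adjusted p = 0.00773), but its plain shares of 0.500%, 0.412% and 0.506% overlapped the 0.431%, 0.453% and 0.479% of the rest, and the call was lost without blood mouse 1. The granule cells were the deepest, with medians of 1071 to 1260 UMIs, against 706 to 721 in the rest. Blood cells with UMIs of interferon-induced genes (Ifit1, Ifit2, Ifit3, Isg15, Rsad2 and Oasl2) held less S100a8, 8.02%, 7.40% and 4.73% in mice 1, 2 and 3, against 9.69%, 10.1% and 8.80% in the rest. That difference of -0.76 was called lower by edgeR (adjusted p = 0.00907), as were 0.71% of the 1831 genes tested, and was not called whichever mouse was left out, nor under HTODemux. S100a9, S100a6 and S100a11 were not called, at -0.61, -0.58 and -0.20. In tumor the granule and interferon lists, and in blood the Ccl3 and Ccl4 list and the hypoxia list, marked fewer than 10 cells in at least 1 mouse and were not tested at 2 UMIs.

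All but the Ccl3 and Ccl4 list in blood could be tested at 1 UMI, a limit taken for them after the data had been seen. In tumor, cells with a UMI of the granule genes (14, 101 and 22 cells in mice 1, 2 and 3) gave S100a8 7.02%, 8.46% and 7.73% of their UMIs, against 3.07%, 2.42% and 2.12% in the rest. The log2 differences were 1.76 for S100a8, 1.44 for S100a9, 2.21 for S100a6 and 1.06 for S100a11, all called higher by edgeR, as were 4.64% of the 927 genes tested. Only the S100a6 call held whichever mouse was left out: S100a8 was not called without mouse 3 (edgeR adjusted p = 0.0812), nor S100a9 and S100a11 without mouse 2 or mouse 3. Median depths were 626.5 to 790.5 UMIs in these cells, against 621 to 670.0 in the rest. In tumor the interferon list gave -0.45 for S100a8, -0.38 for S100a9, -0.54 for S100a6 and -0.23 for S100a11, none called by edgeR. That fit called 0 of the 712 genes tested in either direction. Without mouse 1 S100a8 (-0.70) and S100a9 (-0.72) were called lower, as were 1.14% of the 966 genes tested.

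The hypoxia genes separated tumor cells more than blood cells by the share of S100a6, S100a11 and S100a9. The list itself made 0.411% to 0.501% of UMIs in the tumor mice and 0.0213% to 0.0272% in the blood mice. At 1 UMI it marked 58, 264 and 84 cells in tumor mice 1, 2 and 3, against 50, 39 and 40 in blood mice 1, 2 and 3. How far this difference in the list's level shaped the contrast was not tested. S100a6 made 0.0708%, 0.0586% and 0.0620% of UMIs in tumor cells with at least 1 UMI of the list in mice 1, 2 and 3, against 0.368%, 0.174% and 0.144% in the rest. In blood it made 0.354%, 0.409% and 0.404% in such cells of mice 1, 2 and 3, against 0.413%, 0.341% and 0.373% in the rest. None of the 4 genes was called in blood, with log2 differences of -0.21 for S100a8, -0.12 for S100a9, -0.04 for S100a6 and -0.07 for S100a11. Few genes of any kind were called in that blood fit, 0.0526% higher and 0.158% lower of the 1900 tested. The difference between these contrasts, tumor minus blood, was called lower by edgeR's interaction term for S100a6 (-1.59, adjusted p = 0.00176), S100a11 (-0.96, adjusted p = 0.0315) and S100a9 (-0.62, adjusted p = 0.0315), as it was for 1.74% of the 1089 genes tested. For S100a8 it was -0.51 and not called (edgeR adjusted p = 0.0948). The S100a6 call held whichever mouse was left out; that of S100a9 was lost without blood mouse 2 and that of S100a11 without tumor mouse 3 or any 1 blood mouse. Median depths were 648.5 to 655.5 UMIs in the hypoxia cells of tumor, against 662.5 to 680.0 in the rest, and 669 to 749 in those of blood, against 751 to 773.5 in the rest.

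**Figure D5:**
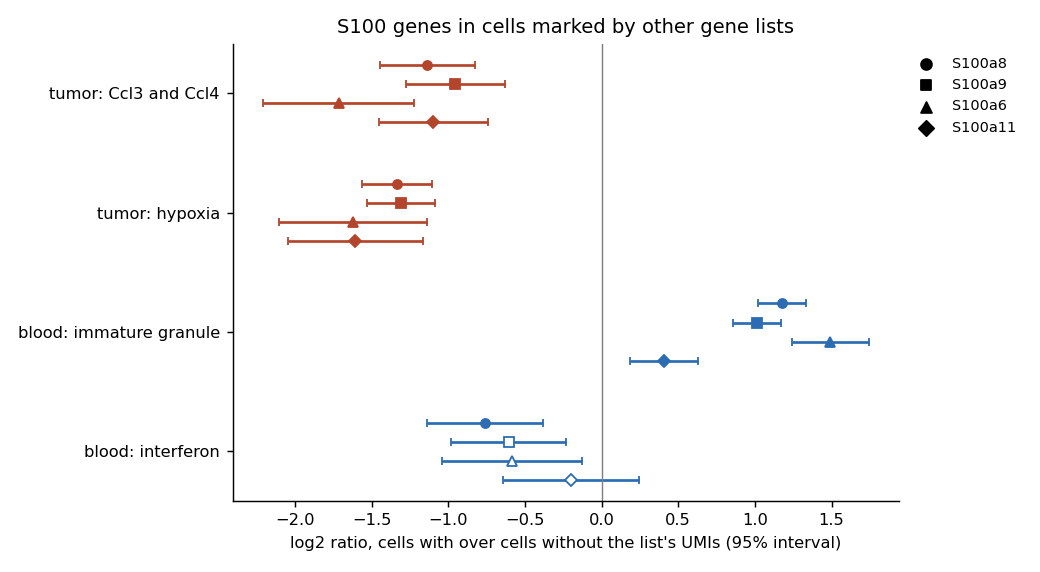
Log2 ratio of each S100 gene in cells with at least 2 UMIs of a marker list over cells without, within a mouse (horizontal axis). Points are edgeR estimates over 3 mice from scaled counts, not ratios of plain shares, and bars are 95% intervals. Tumor is in red above and blood in blue below. Filled symbols were called at an adjusted p under 0.05 and open symbols were not. The Ccl3 and Ccl4 and hypoxia lists give negative values for all 4 genes in tumor, down to -1.72 for S100a6, and in blood the granule list gives positive ones, up to 1.49 for S100a6.

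The genes around the S100 proteins moved in both directions, beside 30.2% higher and 29.8% lower of all genes tested. Of 10 receptors and adaptors of S100 proteins, 8 could be tested, 4 were called higher and 2 lower in tumor. Cd14, the lipopolysaccharide co-receptor, was higher by 5.10 on the log2 scale (edgeR adjusted p = 2.23e-14), Bsg, which encodes basigin, by 4.06, Tlr2 by 2.85 and Nptn, which encodes neuroplastin, by 0.55; basigin and neuroplastin are known from human cells as receptors of S100A9 and S100A8. Nptn was called narrowly (edgeR adjusted p = 0.0399), and not when the low-count filter was left out (0.29, adjusted p = 0.508). Myd88, the adaptor of Toll-like receptors, fell by 2.29 and Cd33, a sialic acid receptor known from human cells to bind S100A9, by 1.00. Tlr4 and its partner Ly96 were tested and not called, at 0.19 and 0.68. Ager, which encodes RAGE, had no UMI in tumor, against 13 UMIs in blood, and did not pass the low-count filter; without the filter it was called lower (edgeR adjusted p = 0.0264).

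Of 12 annexins and other binding partners of S100 proteins, 8 were tested, of which 1 was called higher and 4 lower in tumor. Anxa1, an annexin that binds S100a11, fell by 1.91 (edgeR adjusted p = 8.1e-08), Anxa2, the partner of S100a10, by 1.61, Anxa6 by 1.96 and Myh9, the myosin heavy chain that S100a4 binds, by 1.08. Anxa5 was higher by 1.99. Ahnak, a large scaffold protein that binds S100a10 with annexin A2, had 56 UMIs in tumor, against 12 in blood, did not pass the low-count filter, and was higher by 2.82 without it (edgeR adjusted p = 6.21e-08). Of 7 transcription factors known to act on the calprotectin genes, 5 were tested. Cebpb was higher by 4.47 in tumor (edgeR adjusted p = 1.04e-12) and Hif1a by 1.80, Cebpd fell by 2.56, Spi1, which encodes PU.1, fell by 1.41, and Stat3 was not called at 0.30. Cebpe, a factor of granule maturation with 1 UMI in tumor, against 18 in blood, did not pass the filter and was called lower without it (edgeR adjusted p = 0.0416). Of 13 other EF-hand genes, 11 were tested, with 1 higher and 5 lower: Efhd2 rose by 2.07, and among the lower ones Lcp1, the actin bundler L-plastin, fell by 1.42. Of the 10 other S100 genes on a fixed list, which did not cover the whole family, only S100a1, S100a7a and S100a13 had any UMI. Among the listed genes S100a13 alone passed the filter (log2 change -0.35, edgeR adjusted p = 0.502). S100a1 had 13 UMIs in tumor, against 2 in blood, and was called higher without the filter (edgeR adjusted p = 0.00978).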

How the data were processed

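Each tissue's Drop-seq RNA library and hashtag library were used as the authors deposited them, as tables of whole-number UMI counts per gene and of hashtag counts per barcode. Alignment with STAR to mm10 is per the submitters' processing notes, and the step that made gene counts is not given in the sources used here. Barcodes with at least 200 genes and at most 15% mitochondrial UMIs were kept, 947 of 10000 in tumor and 1534 of 10000 in blood. A kept barcode went to a mouse when 1 hashtag held at least 70% of its hashtag counts, which gave 841 tumor and 1375 blood cells and left out 106 and 159. This removes cells with 2 hashtags in like amounts, while a second hashtag of up to 30% passes, doublets within a mouse are not seen and no other doublet caller was run.

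UMIs were summed per mouse and tissue and tested with edgeR 4.0.16 (filterByExpr, TMM, quasi-likelihood test, tissue as the term, Benjamini-Hochberg adjustment over all genes tested, threshold 0.05), in R 4.3.3. DESeq2 1.42.0 and the HTODemux caller of Seurat 5.3.0 served as alternatives. Ratios, detection and spread were compared over mice with exact two-sided permutation tests, for which 3 against 3 cannot go below 0.1. These were written in Python 3.11.15 with numpy 2.4.6, and detection at 441 UMIs was computed with scipy 1.17.1. The count test was tested on simulated data before use. Spread is the standard deviation of a gene's share over cells divided by its mean, with binomial counting variance subtracted. Marker lists were split at 2 UMIs after reduction of each cell to 441 UMIs, the lower of the tissues' 25th percentiles, with the list's genes left out of the test; 1 such list and 1 gene of another list are not reported here. The fit borrows the spread of all genes, so its p-values rest on few mice and an assumed common behaviour. Free RNA was read from barcodes of 20 to 60 UMIs. PCR copies were collapsed to UMIs by the authors' counting, and intervals and limits cover counting error only.

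The S100 genes, the gene lists and the marker lists were chosen with earlier results of these data known. Named genes are the 6 S100 genes, members of the fixed lists, and for each S100 gene and tissue the 3 genes with the highest mean within-mouse Spearman correlation. Sequences are from RefSeq and positions from GENCODE M21. The alternatives were the hashtag caller and limits, the gene minimum, cells of other types, scaling, the low-count filter, the test, thinning, Pearson in place of Spearman correlation, the UMIs of a marker list and leaving out each mouse in turn.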

Additional observations from a re-analysis of the deposited data

Results flagged for a closer look

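The hypoxia genes separated tumor cells more than blood cells by the share of S100a9, S100a6 and S100a11. The log2 difference between cells with and without at least 1 UMI of the list was lower in tumor than in blood, with a tumor minus blood value of -0.62 for S100a9 (SE 0.15, edgeR interaction term, adjusted p = 0.0315), -1.59 for S100a6 (SE 0.28, edgeR adjusted p = 0.00176) and -0.96 for S100a11 (SE 0.23, edgeR adjusted p = 0.0315). By plain shares S100a6 was lower in the marked cells in 3 of 3 tumor mice and in 1 of 3 blood mice. Of 1089 genes tested 1.74% were called lower in this way. The limit of 1 UMI was taken after the data had been seen, because at 2 UMIs too few blood cells were marked in at least 1 mouse. The list made 0.411% to 0.501% of UMIs in the tumor mice and 0.0213% to 0.0272% in the blood mice. What this difference in level adds to the contrast was not tested.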

How the results depend on the processing

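S100a8, S100a9, S100a6 and S100a11 stayed lower in tumor with an adjusted p under 0.05 under each alternative run, including DESeq2, both other scalings, the removal of S100a8 and S100a9 from the library sizes, and the depth band and HTODemux subset that were added after the data had been seen. Their log2 changes without 1 mouse lay at -1.57 to -1.30, -1.48 to -1.23, -1.88 to -1.61 and -1.66 to -1.46. S100a4 and S100a10 had too few UMIs for a direction: without 1 mouse S100a4 ranged from -0.13 to 1.22 and S100a10 from -1.22 to 0.75. Over the other alternatives S100a4 ranged from 0.044 to 3.79 and S100a10 from -1.11 to 2.13. Among the S100a10 values below 0 were -1.11 without macrophage or MHC class II cells and -0.29 after thinning. It was also below 0 by DESeq2 (-0.023) and without the tumor mouse 2 cells that HTODemux left out (-0.20). The genes called higher and lower, 1111 and 1094, were 655 and 651 after thinning, 350 and 330 in cells of 600 to 799 UMIs and 880 and 888 by DESeq2, the thinned and depth-band settings with fewer UMIs by construction.

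Whether the hashtag numbers pair the mice could not be decided. Deviations from the tissue means correlated at 0.021, 0.074 and -0.025 for same-numbered mice and at -0.087 to 0.066 for the other pairs. Correlations this low cannot tell paired from unpaired numbers, since each deviation is taken from a mean of 3 mice within 1 tissue. With the number as a replicate block the changes were -1.37 for S100a8, -1.27 for S100a9, -1.70 for S100a6, -1.52 for S100a11, 0.79 for S100a4 and -0.17 for S100a10, and 993 genes were called higher and 980 lower.

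In the marker splits, calls for the tumor hypoxia list at 2 UMIs held under each alternative run. The blood granule value of S100a11 was 0.33 to 0.48 without 1 mouse. The blood interferon value of S100a8 was -0.999 to -0.62 without 1 mouse and -0.74 under HTODemux, without a call in either. At 1 UMI S100a8, S100a9 and S100a6 were called lower by edgeR, at -0.48, -0.41 and -0.50, as were 2.66% of the 1989 genes tested. S100a11 then stood at 0.0045 and was not called. The tumor Ccl3 and Ccl4 value of S100a6 was -0.91 at 1 UMI and no longer called, and that of S100a9 was -1.03 to -0.82 without 1 mouse, not called without mouse 3. Without 1 mouse, the tumor granule values at 1 UMI were 1.61 to 2.07 for S100a8, 1.18 to 1.86 for S100a9 and 0.85 to 1.25 for S100a11, the tumor interferon values at 1 UMI -0.70 to -0.14 for S100a8 and -0.72 to -0.011 for S100a9, both called without mouse 1, and the blood hypoxia value of S100a6 -0.18 to 0.071. The tumor minus blood hypoxia differences were then -0.68 to -0.38 for S100a8, called without tumor mouse 3 or blood mouse 3, -0.76 to -0.49 for S100a9 and -1.16 to -0.88 for S100a11. The cause of these changes was not tested. With 70612 to 436713 UMIs per mouse, depth limits S100a4 and S100a10 most, and 3 mice per tissue limit each permutation test.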

Other observations

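A small number of cells held much more of 1 calprotectin RNA than of the other. Among cells that gave at least 5% of their UMIs to S100a8, the S100a8 share was 5 or more times that of S100a9 in 3 of 163 tumor cells, which held 316 S100a8 UMIs beside 56 S100a9 UMIs, and in 10 of 843 blood cells. The 10 blood cells came from all 3 mice (2, 2 and 6 cells), had between 434 and 3141 UMIs, and held 1774 S100a8 UMIs beside 104 S100a9 UMIs. The most extreme of them gave 27.4% of its UMIs to S100a8. The reverse, at least 5% S100a9 with 5 or more times the S100a8 share, was found in 4 of 193 tumor cells and 3 of 877 blood cells. These limits were set after the scatter of the cells had been seen, and the cells were not tested.

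The barcodes that passed the cell filters and were given to no mouse differed between the tissues too. S100a8 made 2.67% of UMIs in the 106 tumor barcodes, beside 3.58% in the assigned tumor cells, and 8.35% in the 159 blood barcodes, beside 8.99% in the assigned blood cells. S100a11 made 0.0991% in these tumor barcodes, beside 0.164% in the assigned cells, and 0.474% in these blood barcodes, beside 0.461%. In tumor both values lay below those of every mouse.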
